A study of Mus musculus with 12 samples.

Results

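Integrins are cell-surface receptors built of 1 alpha and 1 beta subunit, and the transcripts of 10 of their subunits are described here in mouse neutrophils. The 10 genes (Itgam, Itgal, Itgb2, Itga4, Itgb1, Itgb3, Itga2b, Itgav, Itga6 and Itgb7) were taken by name out of 23621 gene symbols with a row, and all 10 were among the 10604 genes with enough reads to be tested. RNA was sequenced in 12 libraries, 4 in each of 3 groups, from cells of Balb/c females that were 8 weeks old. Naive neutrophils came from the bone marrow of tumour-free mice, and the blood of mice that carried liver metastases gave a high-density fraction (HDN) and a low-density one (LDN). Tissue and tumour therefore change together in each comparison with Naive and cannot be told apart, whereas HDN and LDN share both. No transgene or drug is given for any group, and the labels do not state whether a library came from 1 mouse or from a pool.

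Neutrophils use integrins to stop on the vessel wall, to cross it and to hold onto targets. The family sorts by beta chain. The beta2 chain (Itgb2, CD18) pairs with alphaL (Itgal, CD11a) in LFA-1 and with alphaM (Itgam, CD11b) in Mac-1, the main integrins of mature neutrophils. The beta1 chain (Itgb1) pairs with alpha4 (Itga4) in VLA-4, a receptor for VCAM-1 and fibronectin that also helps to hold cells in the bone marrow, and with alpha6 (Itga6) in a laminin receptor. The beta3 chain (Itgb3) pairs with alphaIIb (Itga2b) in the fibrinogen receptor of platelets and with alphaV (Itgav) in a vitronectin receptor. The beta7 chain (Itgb7) pairs with alpha4 in a homing receptor of gut lymphocytes. Integrins rest in a closed shape and open when talin and kindlin bind the tail of the beta chain.

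Libraries held 18113922 to 27741885 reads in genes in Naive, 20049857 to 30044508 in HDN and 23181686 to 26456768 in LDN. A level of 3 reads, the floor used here, was worth 0.0954 to 0.153 CPM, the unit of reads scaled to a common library size. HDN 7 stood apart in its scaling factor (1.28, against 1.01 to 1.05 in the other HDN libraries). Summed neutrophil markers spanned 200741 to 234048 CPM in Naive, 78163 to 129208 in HDN and 193783 to 254866 in LDN, so the labelled cell type was present in all groups. The column names of HDN and LDN carried a tag that looks like a date and those of Naive did not, so a difference in handling cannot be told apart from the comparisons with Naive.

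At the level of the family, the 3 groups differed in which subunits moved rather than in a common direction. Calls are edgeR quasi-likelihood tests with a Benjamini-Hochberg adjusted p under 0.05 over all genes tested. In HDN against Naive, 8 of 10 subunits changed, where 59.8% of all genes tested did. Of these, 5 were higher in HDN (Itgal, Itga4, Itgb1, Itga2b and Itgav; 30.0% of all genes were higher) and 3 were lower (Itgb2, Itgb3 and Itga6; 29.9% of all genes were lower). In LDN against Naive, 4 of 10 changed, where 54.2% of all genes did, with Itgam and Itga4 higher (27.4% of all genes) and Itgb3 and Itga6 lower (26.8%). In LDN against HDN, 7 of 10 changed, where 46.3% of all genes did. Itgam, Itgb2, Itgb3 and Itga6 were higher in LDN (26.0% of all genes), and Itga4, Itga2b and Itgav were lower (20.3%). The median log2 fold change of the 10 subunits was 0.23, -0.03 and -0.30 in these 3 comparisons, beside 0.04, 0.01 and 0.02 over all genes tested. Between HDN and LDN, 7 subunits had groups that did not overlap (39.2% of all genes), as did 7 between HDN and Naive (53.3%) and 4 between LDN and Naive (55.3%). The comparisons share libraries and are not independent of each other. In bulk RNA, fewer cells of a type and less RNA per cell cannot be told apart.

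**Figure D1:**
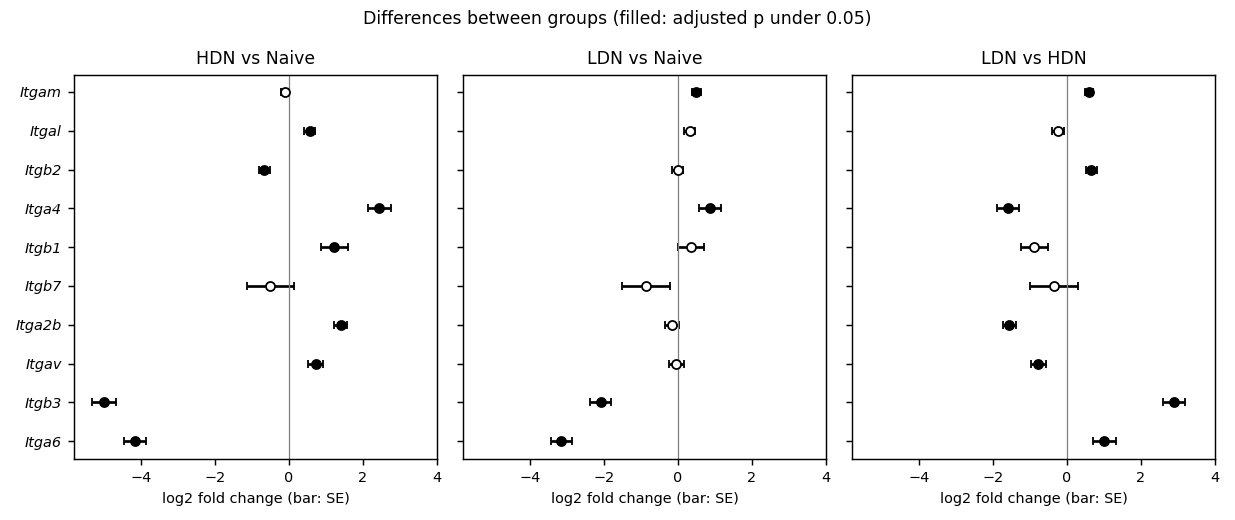
Log2 fold change with its standard error (horizontal axis) for the 10 integrin subunits in HDN against Naive, LDN against Naive and LDN against HDN, with filled points for an adjusted p under 0.05 in the edgeR quasi-likelihood test. The beta3 chain Itgb3 spans the widest range, from -4.995 in HDN against Naive to 2.91 in LDN against HDN.

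Promoter windows are shown for the subunits whose transcripts moved between HDN and LDN and for which the RefSeq table held a window. They are the 250 bases before the start site on the gene's own strand, 5′ to 3′, from RefSeq on GRCm38.p6, a reference genome of another strain than Balb/c. Of the 10 subunits, 6 had a window (Itgam, Itga4, Itgb1, Itga2b, Itgav and Itgb7). Itgal, Itgb2, Itgb3 and Itga6 are named only. Capitals mark matches on either strand to the core letters of 4 factor families known for blood-cell or general promoters: the letters GAGGAA for PU.1, AGATAA for the GATA factors, TGTGGT for RUNX and GGGCGG for SP1.
Itgam promoter, chr7:128062390-128062639, plus strand: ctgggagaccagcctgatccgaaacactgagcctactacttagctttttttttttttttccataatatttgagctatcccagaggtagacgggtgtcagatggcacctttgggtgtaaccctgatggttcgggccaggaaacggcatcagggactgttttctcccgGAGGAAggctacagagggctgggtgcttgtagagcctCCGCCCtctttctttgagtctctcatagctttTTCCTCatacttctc
Itga4 promoter, chr2:79255176-79255425, plus strand: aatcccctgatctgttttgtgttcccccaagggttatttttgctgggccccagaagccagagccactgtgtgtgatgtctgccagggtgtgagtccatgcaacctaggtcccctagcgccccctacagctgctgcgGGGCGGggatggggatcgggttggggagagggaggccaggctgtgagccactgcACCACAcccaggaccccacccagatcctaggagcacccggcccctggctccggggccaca
Itga2b promoter, chr11:102469884-102470133, minus strand: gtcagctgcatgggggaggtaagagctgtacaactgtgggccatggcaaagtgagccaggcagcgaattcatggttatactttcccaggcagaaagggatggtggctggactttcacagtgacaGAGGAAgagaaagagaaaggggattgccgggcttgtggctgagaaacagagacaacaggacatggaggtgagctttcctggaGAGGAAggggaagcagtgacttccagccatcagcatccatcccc
Itgav promoter, chr2:83724147-83724396, plus strand: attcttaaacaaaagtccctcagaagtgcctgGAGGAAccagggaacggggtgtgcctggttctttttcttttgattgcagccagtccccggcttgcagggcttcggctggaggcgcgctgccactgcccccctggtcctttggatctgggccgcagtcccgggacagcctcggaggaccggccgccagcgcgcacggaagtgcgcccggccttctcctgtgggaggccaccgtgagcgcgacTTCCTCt
The Itgam window, of the subunit that was higher in LDN, held 2 PU.1 matches and 1 SP1 match. The windows of Itga2b and Itgav, which were lower in LDN than in HDN, also held 2 PU.1 matches each, so these letters were present in subunits that moved either way. The Itga4 window held 1 RUNX and 1 SP1 match. Of the windows not printed, that of Itgb1 held 1 PU.1 and 1 SP1 match and that of Itgb7 held none of the 4. Among 32851 windows of the same length, 23.3% held the PU.1 letters, 9.99% the GATA letters, 14.0% the RUNX letters and 32.7% the SP1 letters. None of the matches overlapped another, and a match is a run of letters, not a bound site.

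Per kilobase of transcript, the beta2 family stood far above the other subunits in every group. In Naive the order was Itgb2 (974 CPM per kb), Itgam (675), Itgal (185), Itgb3 (19.5), Itgb7 (11.2), Itgb1 (6.63), Itga4 (2.95), Itgav (2.38), Itga6 (2.08) and Itga2b (0.752). The ranges of Itga4, Itgav and Itga6 overlapped with those of their neighbours in that order, and the other neighbours were apart. In HDN the order was Itgam (628 CPM per kb), Itgb2 (613), Itgal (273), Itga4 (16.1), Itgb1 (15.5), Itgb7 (7.86), Itgav (3.93), Itga2b (1.99), Itgb3 (0.612) and Itga6 (0.114). Itgam overlapped with Itgb2 there, and each of Itga4, Itgb1 and Itgb7 overlapped with the next. Itgb3 thus stood in the fourth place in Naive and in the ninth in HDN. In LDN the order was Itgb2 (968 CPM per kb), Itgam (953), Itgal (230), Itgb1 (8.44), Itgb7 (6.19), Itga4 (5.37), Itgb3 (4.58), Itgav (2.31), Itga2b (0.673) and Itga6 (0.233). Itgb2 overlapped with Itgam, and Itgb1, Itgb7 and Itga4 each overlapped with the next. Reads of the 10 subunits made up 0.676% to 0.811% of a library. Itgam, Itgal and Itgb2 together took 92.7% of those reads in HDN 7 and 95.9% to 98.5% in the other 11 libraries.

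**Figure D2:**
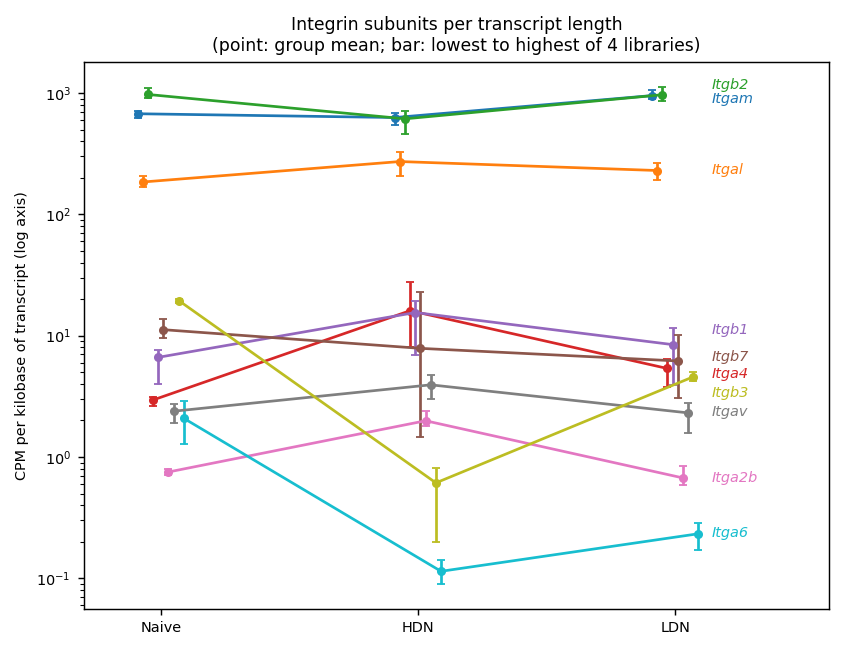
Level of each integrin subunit in CPM per kilobase of transcript (log axis) in the 3 groups, with a point at the mean of the 4 libraries, a bar from the lowest to the highest library, and lines that join the points of a subunit. Itgam, Itgb2 and Itgal lie above 100 in every library, and Itgb3 falls from a mean of 19.5 in Naive to 0.612 in HDN.

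Among the beta2 integrins, LDN carried more Itgam than either other group, and HDN carried less Itgb2 and, against Naive, more Itgal. Itgam, the CD11b chain of Mac-1, was at 2909, 3209, 3136 and 3302 CPM in Naive 1 to 4, at 3160, 3160, 2836 and 2526 in HDN 3, 4, 5 and 7, and at 4424, 4216, 4961 and 4119 in LDN 3, 4, 5 and 7. All 4 LDN libraries lay above all 8 others, and HDN and Naive overlapped. Itgam was 1.52-fold higher in LDN than in HDN (log2 0.60 ± 0.12 SE, adjusted p = 0.00122) and 1.41-fold higher than in Naive (log2 0.50 ± 0.12 SE, adjusted p = 0.00314). In HDN against Naive its log2 fold change was -0.10 (adjusted p = 0.474).

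Itgb2, the shared beta2 chain, was at 3244, 2858, 2757 and 2706 CPM in Naive 1 to 4, at 1983, 1826, 2118 and 1355 in HDN 3, 4, 5 and 7, and at 2793, 2797, 3353 and 2557 in LDN 3, 4, 5 and 7. The HDN libraries were all below the other 8, with HDN 7 the lowest, whereas Naive and LDN overlapped. Itgb2 was 1.59-fold lower in HDN than in Naive (log2 -0.67 ± 0.15 SE, adjusted p = 0.00161) and 1.58-fold higher in LDN than in HDN (log2 0.66 ± 0.15 SE, adjusted p = 0.00286). LDN and Naive had a log2 fold change of -0.01 (adjusted p = 0.968).

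Itgal, the CD11a chain of LFA-1, was at 1074, 999, 870 and 898 CPM in Naive 1 to 4, at 1626, 1274, 1686 and 1078 in HDN 3, 4, 5 and 7, and at 1293, 996, 1364 and 1124 in LDN 3, 4, 5 and 7. Every HDN library was above every Naive library, by a margin of only a few CPM for HDN 7, and LDN overlapped with both. Itgal was 1.47-fold higher in HDN than in Naive (log2 0.56 ± 0.16 SE, adjusted p = 0.00764). The differences of LDN from HDN (log2 -0.25, adjusted p = 0.219) and from Naive (0.31, adjusted p = 0.11) did not pass. Without HDN 7 the former passed (log2 -0.36, adjusted p = 0.0477), as it did with GC correction and the replicate block together (-0.39, adjusted p = 0.00145).

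Because the 3 beta2-family genes did not move together, the make-up of this family shifted between groups. For every Itgb2 read there were 0.331, 0.349, 0.315 and 0.332 Itgal reads in Naive 1 to 4, 0.820, 0.698, 0.796 and 0.795 in HDN 3, 4, 5 and 7, and 0.463, 0.356, 0.407 and 0.440 in LDN 3, 4, 5 and 7. No 2 of the 3 groups overlapped, with HDN above LDN and LDN above Naive. The ratio of Itgal to Itgb2 was 2.34-fold higher in HDN than in Naive and 1.87-fold lower in LDN than in HDN, lower in 4 of 4 same-numbered pairs (exact two-sided permutation p = 0.0286 for each, the smallest that 4 against 4 allows; adjusted p = 0.0449 over 33 ratio tests). Every ratio said to differ here has those same values of p. Such a call means only that the 4 libraries of 1 group did not overlap the 4 of the other. Its adjusted p rests on how many ratios reached the smallest p, and many ratios share a subunit. A ratio within a library does not depend on how libraries are scaled to each other, and only its change between groups is read, since the transcripts differ in length.

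Reads of Itgam for each Itgb2 read spanned 0.897 to 1.22 in Naive, 1.34 to 1.87 in HDN and 1.48 to 1.61 in LDN. The ratio was higher than in Naive in both HDN (1.49-fold) and LDN (1.42-fold), and HDN and LDN overlapped (log2 difference -0.07, exact permutation p = 0.571, adjusted p = 0.608). Itgam relative to Itgal was 1.57-fold lower in HDN than in Naive and 1.79-fold higher in LDN than in HDN. Relative to beta2, both alpha chains were thus higher in HDN than in Naive, alphaL the more so. In LDN the alphaM share of the subunit reads was 51.3% ± 0.705 (SD, n = 4), against 45.6% ± 3.31 in HDN and 43.6% ± 3.12 in Naive.

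**Figure D3:**
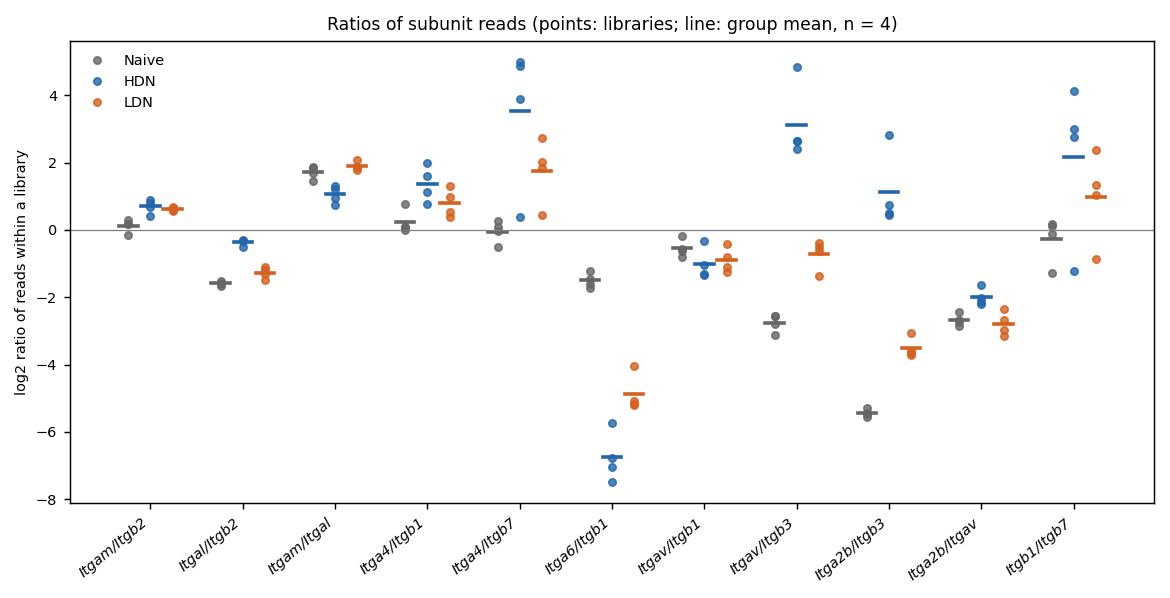
Log2 ratio of the reads of paired subunits within each library, with 1 point per library and a line at the group mean, for the subunit pairs named on the axes. The ratio of Itgal to Itgb2 separates all 3 groups, and those of Itgav and Itga2b to Itgb3 are highest in HDN.

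The beta2 branch also holds Itgax and Itgb2l, from the list of other integrin subunits, and both differed between LDN and HDN. Itgax, the CD11c chain, was at 31.5 ± 5.58 CPM (SD, n = 4) in Naive, 20.5 ± 5.48 in HDN and 4.45 ± 1.09 in LDN. It was lower in LDN than in HDN (log2 -2.20, adjusted p = 9.3e-06), and its difference between HDN and Naive (log2 -0.62, adjusted p = 0.0245) did not pass without Naive 2 (adjusted p = 0.0756), HDN 4 (0.0559) or HDN 7 (0.065). Itgb2l, a beta2-like chain of mouse neutrophils, was at 196 ± 14.5 CPM in Naive, 11.6 ± 2.94 in HDN and 89.6 ± 11.6 in LDN. It was lower in HDN (log2 -4.07, adjusted p = 9e-10) and in LDN (log2 -1.13, adjusted p = 5.19e-05) than in Naive and higher in LDN than in HDN (log2 2.95, adjusted p = 1.6e-07).

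The alpha4 and beta1 chains were highest in HDN. Itga4 was at 25.7, 30.3, 28.6 and 30.7 CPM in Naive 1 to 4, at 161, 79.0, 116 and 272 in HDN 3, 4, 5 and 7, and at 62.9, 37.1, 54.9 and 54.7 in LDN 3, 4, 5 and 7. The 3 groups did not overlap, and HDN spread most widely, from HDN 4 to HDN 7. Itga4 was 5.45-fold higher in HDN than in Naive (log2 2.45 ± 0.31 SE, adjusted p = 1.11e-05) and 3.00-fold lower in LDN than in HDN (log2 -1.58 ± 0.30 SE, adjusted p = 0.000776). It was also 1.82-fold higher in LDN than in Naive (log2 0.86 ± 0.29 SE, adjusted p = 0.0236). That call ended without Naive 1 (adjusted p = 0.0903), Naive 3 (0.0501), LDN 3 (0.0954), LDN 5 (0.0701) or LDN 7 (0.0724), and with no filter on low counts (0.059).

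Itgb1 was at 15.1, 28.4, 28.7 and 28.8 CPM in Naive 1 to 4, at 74.0, 26.2, 68.2 and 68.4 in HDN 3, 4, 5 and 7, and at 43.9, 14.9, 42.4 and 27.6 in LDN 3, 4, 5 and 7. In each group 1 library lay low (Naive 1, HDN 4 and LDN 4), and HDN overlapped with both other groups through HDN 4. Itgb1 was 2.34-fold higher in HDN than in Naive (log2 1.23 ± 0.36 SE, adjusted p = 0.00987). Its difference between LDN and HDN missed the threshold (log2 -0.88 ± 0.36 SE, adjusted p = 0.0602) and passed when the replicate numbers that HDN and LDN share were used as pairs (log2 -0.94, adjusted p = 0.000782) or when HDN 4 (-1.12, adjusted p = 0.00987), LDN 3 (adjusted p = 0.0406) or LDN 5 (0.0459) was left out. LDN and Naive had a log2 fold change of 0.35 (adjusted p = 0.433).

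Itgb7, the other partner of alpha4, was at 36.6, 31.2, 26.7 and 25.7 CPM in Naive 1 to 4, at 10.95, 61.0, 3.92 and 8.51 in HDN 3, 4, 5 and 7, and at 17.6, 27.1, 8.17 and 13.6 in LDN 3, 4, 5 and 7. HDN 4 alone was above all Naive libraries, and the other 3 HDN libraries were below all of them. None of the 3 comparisons passed (HDN against Naive log2 -0.51, adjusted p = 0.513; LDN against Naive -0.86, adjusted p = 0.278; LDN against HDN -0.35, adjusted p = 0.681). Fitted on only the 8 libraries compared, LDN against Naive passed (-0.88, adjusted p = 0.0204). Without HDN 4, Itgb7 was lower in HDN than in Naive (log2 -1.95, adjusted p = 8e-04) and higher in LDN than in HDN (log2 1.10, adjusted p = 0.0303), the opposite sign to the value with it. Within HDN and within LDN the libraries fell in the same order of replicate number, 4 above 3 above 7 above 5.

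Reads of Itga4 for each Itgb1 read were 0.995 to 1.696 in Naive, 1.698 to 3.98 in HDN and 1.30 to 2.49 in LDN. The ratio was higher in HDN than in Naive (log2 difference 1.13), but the groups were apart only by 1.698 against 1.696, and with GC correction the difference did not pass (1.11, exact permutation adjusted p = 0.0898). The differences of LDN from Naive (0.56, exact permutation p = 0.0857, adjusted p = 0.129) and from HDN (-0.57, exact permutation p = 0.143, adjusted p = 0.189) did not pass, though LDN was lower than HDN in 4 of 4 same-numbered pairs. Against Itgb7 the shift was wider. There were 0.702 to 1.19 Itga4 reads for each Itgb7 read in Naive, 14.7, 1.29, 29.4 and 31.9 in HDN 3, 4, 5 and 7, and 3.58, 1.37, 6.70 and 4.02 in LDN 3, 4, 5 and 7. Both blood groups lay above Naive in every library (11.97-fold for HDN and 3.51-fold for LDN), while HDN and LDN overlapped through HDN 4 (exact permutation p = 0.2, adjusted p = 0.228). Without HDN 4 the log2 difference between HDN and Naive went from 3.58 to 4.63 and that between LDN and HDN from -1.77 to -2.82. The ratio of Itgb1 to Itgb7 did not pass in any of the 3 comparisons (exact permutation adjusted p from 0.164 to 0.44).

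Lymphocytes also express alpha4 and beta7, so their markers are given beside these values. Summed B cell markers spanned 16.6 to 42.7 CPM in Naive, 0.458 to 2.70 in HDN and 1.77 to 7.15 in LDN. Summed T cell markers, most of them reads of Cd3d, spanned 193 to 267 CPM in Naive, 3.70 to 21.9 in HDN and 32.9 to 49.6 in LDN. The B cell sum was lowest in HDN, where Itga4 was highest. The T cell markers did not move together between HDN and Naive. Of 7 tested, Cd3d and Cd3g were lower in HDN (log2 -4.72 and -2.64), while Cd3e (log2 2.58, adjusted p = 0.0147), Cd247 (2.20, adjusted p = 0.0137) and Bcl11b (adjusted p = 0.00348) were higher, as Itga4 was, at levels in HDN of 0.535, 0.560 and 0.401 CPM. HDN 4, with the most Itgb7, had T and B cell sums of 10.04 and 1.53 CPM, inside the range of its group. All the defining B cell markers that could be tested, 4 of 4, were lower in HDN than in Naive, as was Itgb7 in 3 of 4 HDN libraries, and the part of lymphocytes in the Itga4 and Itgb7 values was not tested.

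In each group, the library that leaned most to GC-rich transcripts had the lowest Itgb1 and the highest Itgb7. Across 5843 genes with a transcript in GENCODE M21, the deviation of a library from its group mean correlated with transcript GC content at r = 0.593 in Naive 1, 0.609 in HDN 4 and 0.621 in LDN 4, at 0.223 in LDN 7, and at -0.508 to -0.0147 in the other 8 libraries. These are descriptions across genes, which are not replicates. Naive 1, HDN 4 and LDN 4 were the libraries with the lowest Itgb1 and the highest Itgb7 of their groups. Among the others the order was mixed. HDN 5, at r = -0.0147, had the lowest Itgb7 of HDN (3.92 CPM). LDN 7, at 0.223, had less Itgb7 than LDN 3 (13.6 against 17.6 CPM). In Naive 2 to 4 Itgb7 fell as r fell, and LDN 7 had less Itgb1 than LDN 3 and LDN 5. Itgb1 has a GC content of 44.8% and Itgb7 one of 58.0%, where the median gene has 50.7%. After a correction of each library for GC content, an alternative chosen after seeing the data, Itgb7 was at 51.6 CPM in HDN 4 against 3.98 to 11.4 in the other HDN libraries. Itgb1 was at 30.6 CPM in HDN 4 against 58.8 to 66.9. Before it, Itgb7 was at 61.0 CPM in HDN 4 against 3.92 to 10.95 in the other HDN libraries, and Itgb1 at 26.2 against 68.2 to 74.0. The correction takes out only a trend over all genes, and the part of GC content in these values was not tested. The same correction gave Itgb1 a difference between LDN and HDN of log2 -0.93 (adjusted p = 0.0127).

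**Figure D4:**
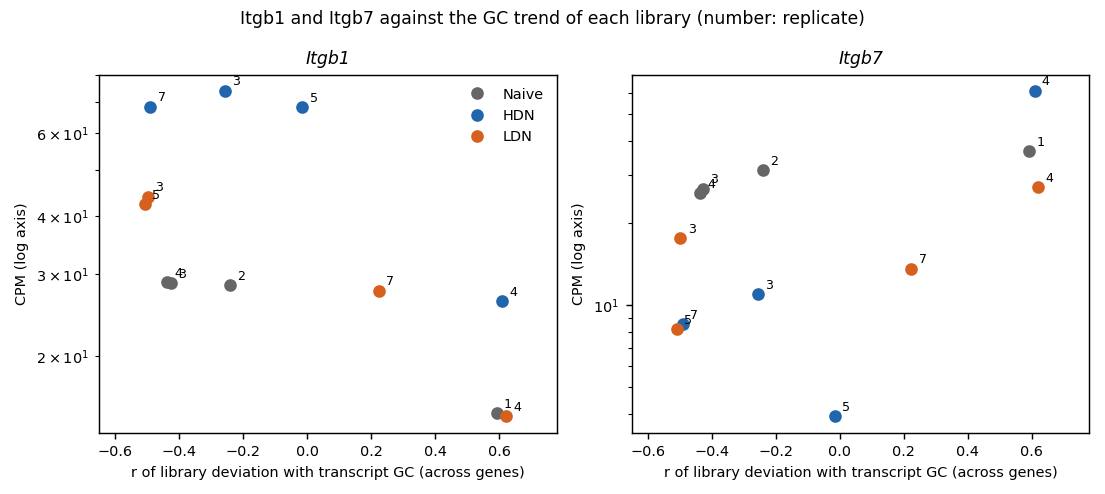
Level of Itgb1 and of Itgb7 in CPM (log axis) against the correlation of each library's deviation with transcript GC content, with 1 point per library coloured by group. Naive 1, HDN 4 and LDN 4, at r = 0.593 to 0.621, have the lowest Itgb1 and the highest Itgb7 of their groups.

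Outside the 10 subunits, the beta1 partner Itga5, the alpha5 chain of the fibronectin receptor, had the same order of groups as Itga4. It was at 9.65 ± 1.77 CPM (SD, n = 4) in Naive, 178 ± 26.0 in HDN and 96.7 ± 9.97 in LDN, which was higher in both HDN (log2 4.20, adjusted p = 3.61e-10) and LDN (log2 3.32, adjusted p = 3.24e-09) than in Naive and lower in LDN than in HDN (log2 -0.88, adjusted p = 0.00031). Itgae, the alphaE partner of beta7, had 1, 1, 1 and 2 reads in the Naive libraries, below the floor of 3, and was at 2.35 ± 0.599 CPM in HDN and 0.252 CPM in LDN, at 3 to 10 reads, lower in LDN than in HDN (log2 -3.19, adjusted p = 1.52e-05).

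Of the 10 subunits, the beta3 chain had the widest difference in HDN against Naive and in LDN against HDN, while Itga6 had the widest in LDN against Naive. Itgb3 was at 117, 107, 113 and 114 CPM in Naive 1 to 4, at 4.70, 3.97, 4.34 and 1.14 in HDN 3, 4, 5 and 7, and at 24.3, 29.1, 28.0 and 24.5 in LDN 3, 4, 5 and 7. The 3 groups did not overlap, and Naive and LDN were each tight, while HDN 7 lay well below the other HDN libraries. Itgb3 was 31.9-fold lower in HDN than in Naive (log2 -4.995 ± 0.32 SE, adjusted p = 1.75e-08) and 4.26-fold lower in LDN than in Naive (log2 -2.09 ± 0.27 SE, adjusted p = 2.54e-05). LDN exceeded HDN by 7.49-fold (log2 2.91 ± 0.29 SE, adjusted p = 6.6e-06).

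Both alpha partners of beta3 moved the other way between HDN and LDN. Itga2b, the alphaIIb chain, was at 2.45, 2.73, 2.54 and 2.63 CPM in Naive 1 to 4, at 6.35, 6.68, 6.17 and 8.17 in HDN 3, 4, 5 and 7, and at 2.88, 2.17, 2.20 and 2.00 in LDN 3, 4, 5 and 7. Every HDN library was above every other library, and Naive and LDN overlapped. Itga2b was 2.64-fold higher in HDN than in Naive (log2 1.40 ± 0.18 SE, adjusted p = 1.09e-05) and 2.95-fold lower in LDN than in HDN (log2 -1.56 ± 0.18 SE, adjusted p = 1.59e-05). These levels are low, at 43 to 74 reads in a Naive or LDN library and 131 to 214 in an HDN library. LDN and Naive had a log2 fold change of -0.16 (adjusted p = 0.478).

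Itgav, the alphaV chain, was at 13.3, 18.2, 16.4 and 19.3 CPM in Naive 1 to 4, at 29.2, 21.01, 27.3 and 33.5 in HDN 3, 4, 5 and 7, and at 18.4, 11.1, 19.8 and 15.9 in LDN 3, 4, 5 and 7. HDN was above both other groups in every library, with HDN 4 nearest to them. Itgav was 1.65-fold higher in HDN than in Naive (log2 0.72 ± 0.20 SE, adjusted p = 0.00647) and 1.702-fold lower in LDN than in HDN (log2 -0.77 ± 0.20 SE, adjusted p = 0.00668). LDN and Naive had a log2 fold change of -0.04 (adjusted p = 0.866), which the correction for GC content moved to -0.31 (adjusted p = 0.0183).

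**Figure D5:**
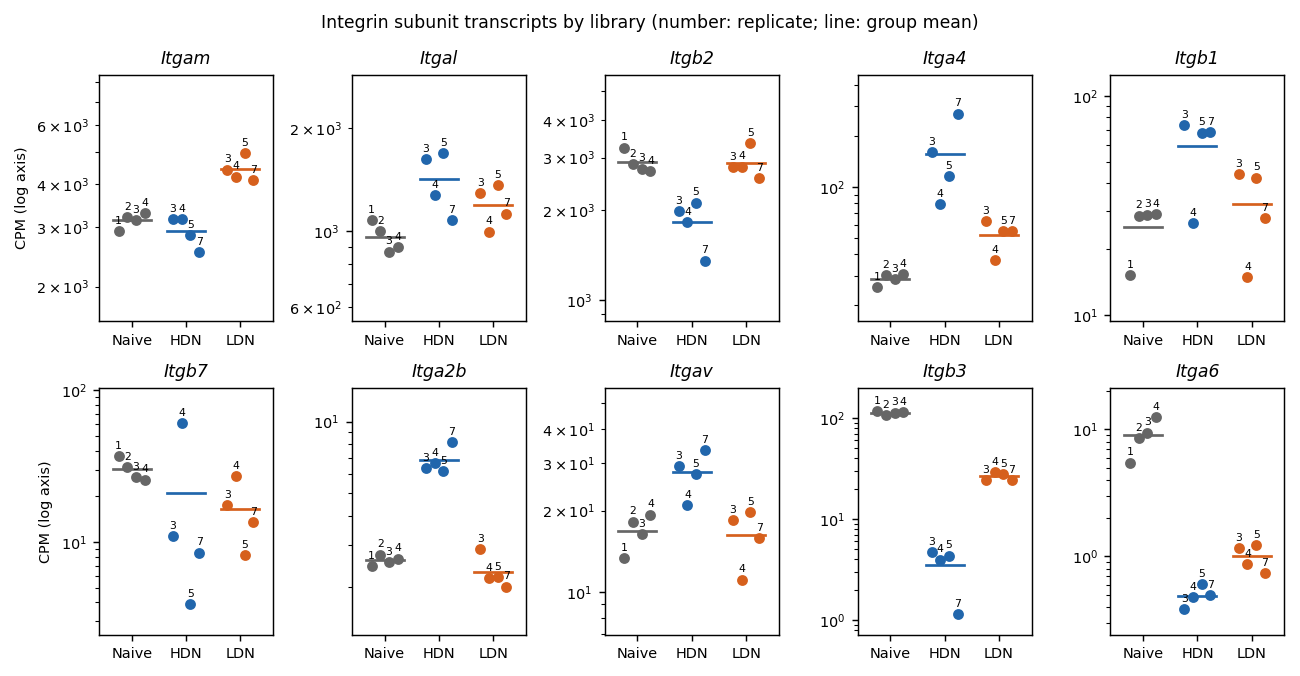
CPM of each of the 10 integrin subunits (log axis) in the 12 libraries, with 1 point per library and a line at the mean of each group of 4. Itgb3 separates Naive (107 to 117), LDN (24.3 to 29.1) and HDN (1.14 to 4.70), and Itga2b is highest in HDN (6.17 to 8.17).

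The alpha to beta ratios of this branch reflect both shifts. Reads of Itga2b for each Itgb3 read were 0.0211 to 0.0257 in Naive, 1.35, 1.68, 1.42 and 7.03 in HDN 3, 4, 5 and 7, and 0.0753 to 0.119 in LDN. Reads of Itgav for each Itgb3 read were 0.114 to 0.171 in Naive, 6.18, 5.27, 6.28 and 28.8 in HDN 3, 4, 5 and 7, and 0.383 to 0.758 in LDN. HDN 7 was the highest in both, and the 3 groups did not overlap in either. The ratio of Itga2b to Itgb3 was 94.2-fold higher in HDN than in Naive, 3.79-fold higher in LDN than in Naive and 24.9-fold lower in LDN than in HDN. For Itgav to Itgb3 these differences were 59.2-fold, 4.08-fold and 14.5-fold in the same directions. Between the alpha chains, the ratio of Itga2b to Itgav was 1.59-fold higher in HDN than in Naive and 1.72-fold lower in LDN than in HDN. Itgav relative to Itgb1, its other beta partner here, did not pass in any comparison (log2 differences -0.45, -0.34 and 0.11, exact permutation adjusted p from 0.217 to 0.743). Itgb5, another beta partner of alphaV, was at 3.93, 3.93 and 2.64 CPM in Naive, HDN and LDN and passed in no comparison unless HDN and LDN were paired (log2 -0.60 in LDN against HDN, adjusted p = 0.037) or HDN 7 was left out (-0.79, adjusted p = 0.0293).

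Since alphaIIb and beta3 are also platelet proteins, platelet and megakaryocyte markers are set beside them. Their sum spanned 11.03 to 14.0 CPM in Naive, 2.94 to 17.4 in HDN and 8.61 to 35.7 in LDN, with F2rl2 the largest part. The defining markers were low. Itga2b was low as well, at 2.45 to 2.73 CPM in Naive, 6.17 to 8.17 in HDN and 2.00 to 2.88 in LDN. Pf4 was at 0.672, 0.0190 and 0.314 CPM in the Naive, HDN and LDN groups, and Ppbp was at 0.600, 0.0338 and 0.529. Gp9 and Gp1bb, of the von Willebrand factor receptor, were at 0.589 and 2.99 CPM in Naive, 0.0175 and 0.217 in HDN and 0.190 and 1.12 in LDN. Of the 13 markers, 2 were at 0 in all HDN libraries. Of the 7 that could be tested, 5 were lower in HDN than in Naive and 5 were higher in LDN than in HDN, and the others did not pass. Itgb3 moved in the direction of those 5 markers and Itga2b in the opposite one, and the part of platelets in either was not tested.

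Alpha6, the laminin-binding partner of beta1, was highest in the Naive group and low in both blood groups. Itga6 was at 5.47, 8.56, 9.41 and 12.5 CPM in Naive 1 to 4, at 0.388, 0.477, 0.609 and 0.496 in HDN 3, 4, 5 and 7, and at 1.17, 0.876, 1.23 and 0.745 in LDN 3, 4, 5 and 7. The 3 groups did not overlap, but the blood groups rest on few reads, 8 to 16 in an HDN library and 16 to 28 in an LDN library. Itga6 was 17.9-fold lower in HDN (log2 -4.16 ± 0.29 SE, adjusted p = 4.52e-08) and 8.89-fold lower in LDN (log2 -3.15 ± 0.28 SE, adjusted p = 6.82e-07) than in Naive. It was 2.02-fold higher in LDN than in HDN (log2 1.01 ± 0.31 SE, adjusted p = 0.0161), a call that ended without LDN 3 (adjusted p = 0.0567) or LDN 5 (0.0561) and under limma-voom (0.0603).

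For each Itgb1 read, Itga6 reads were 38.2-fold fewer in HDN and 10.4-fold fewer in LDN than in Naive and 3.69-fold more in LDN than in HDN. Itga8, another alpha partner of beta1, was likewise highest in Naive, at 2.50 ± 0.242 CPM (SD, n = 4). It had 1 read over all 4 HDN libraries and 2 over all 4 LDN libraries, at or below the floor in each.

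Of the 17 other integrin subunits, 11 reached 1 CPM in no library and 7 could be tested. In HDN against Naive 2 of the 7 were higher and 4 lower, where 30.0% and 29.9% of all genes were. The same counts held in LDN against Naive (27.4% and 26.8% of all genes), and in LDN against HDN 1 was higher and 3 lower (26.0% and 20.3%). These shares of all genes also apply to the lists that follow.

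The genes that switch integrins on and off were examined as a list of 21, of which 15 could be tested. In LDN against HDN, 4 were higher and 3 lower, near the shares of all genes tested (26.0% higher and 20.3% lower), with a median log2 fold change of 0.13 where all genes had 0.02. Without HDN 3 or HDN 5 only 1 was lower, and with GC correction 6 were. Flna, a filamin that competes with talin for the beta tail, was at 5292 ± 173 CPM (SD, n = 4) in Naive, 3481 ± 684 in HDN and 8180 ± 625 in the LDN libraries (LDN against HDN log2 1.23, adjusted p = 2.58e-05). Tln1, talin itself, was at 2668 ± 148, 2350 ± 356 and 3221 ± 130 CPM (log2 0.45, adjusted p = 0.0103). Both the activator of the beta2 tail and its competitor were therefore higher in LDN. Rasa3, which switches off the small GTPase Rap1, was at 279 ± 33.6 CPM in Naive, 522 ± 78.4 in HDN and 264 ± 9.66 in LDN (log2 -0.98, adjusted p = 5.01e-05), while Rap1gap2, another inhibitor of Rap1, was higher in LDN (log2 0.46, adjusted p = 0.0029). Rap1b was higher in HDN (log2 0.81, adjusted p = 0.000988) and in LDN (log2 0.91, adjusted p = 0.000486) than in Naive and had a log2 fold change of 0.10 between them (adjusted p = 0.642). Against Naive, 7 of the 15 were higher and 3 lower in HDN, and 8 were higher and 2 lower in LDN (medians 0.40 and 0.40).

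Of 29 genes of the adhesion complex and its signalling, 25 could be tested, and 10 were higher and 4 lower in LDN than in HDN, beside 26.0% and 20.3% of all genes tested (median log2 fold change 0.18). The 4 lower were Crk (log2 -0.51), Zyx (-0.43), Syk (-0.41) and Nedd9 (-0.34). These lower calls all ended without HDN 3 and likewise without HDN 5, whereas GC correction gave 8 lower calls. Parvg, the gamma-parvin of blood cells, was at 351 ± 21.3, 89.5 ± 15.0 and 249 ± 19.4 CPM in Naive, HDN and LDN (LDN against HDN log2 1.48, adjusted p = 2.18e-06). Vcl, the talin-binding protein vinculin, was at 382 ± 78.3, 115 ± 28.1 and 293 ± 49.4 CPM (log2 1.35, adjusted p = 0.00014). Actn1, an actin crosslinker of the alpha-actinin family, was at 1155 ± 28.2, 545 ± 184 and 1303 ± 236 CPM (log2 1.26, adjusted p = 0.000323). All 3 were lowest in HDN. They were named for the size of their LDN against HDN difference, and a link to Itgb2 or Itgb3 was not tested. Lims1, the adaptor PINCH1, was also higher in LDN than in HDN (log2 1.06, adjusted p = 0.0221), but its groups overlapped and the call ended without HDN 5 (adjusted p = 0.0509), LDN 3 (0.0909) or LDN 5 (0.117). Against Naive, 5 of the 25 were higher and 9 lower in HDN, with 8 higher when HDN 7 was left out, and 5 were higher and 4 lower in LDN (medians -0.0032 and -0.08).

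Ligands and counter-receptors were a list of 22 genes, of which 13 could be tested, with 4 higher and 2 lower in LDN than in HDN, beside 26.0% and 20.3% of all genes (median log2 fold change 0.45). Without HDN 5 only 1 was lower. Fn1, fibronectin, which is bound by alpha4, alpha5 and alphaV integrins, was at 8.60 ± 8.72 CPM in Naive, 12.6 ± 2.09 in HDN and 176 ± 47.0 in the LDN libraries (LDN against HDN log2 3.81, adjusted p = 5.82e-05). Thbs1, thrombospondin-1, a ligand of alphaV beta3, was at 851 ± 143 CPM in Naive, 0.636 ± 0.147 in HDN and 4.98 ± 1.91 in LDN (log2 2.94, adjusted p = 8.1e-06). Its order of groups was that of Itgb3, with Naive above LDN above HDN. It was named for the size of its LDN against HDN difference, and a link to Itgb3 was not tested. Icam1, the counter-receptor of LFA-1 and Mac-1, was at 7.88 ± 1.27, 18.8 ± 3.72 and 9.48 ± 1.18 CPM (log2 -0.99, adjusted p = 0.000501), highest in HDN. Itgal was also higher in HDN than in Naive, but its difference between LDN and HDN did not pass. Against Naive, 5 of the 13 were higher and 5 lower in HDN, and 6 were higher and 6 lower in LDN (medians 0.57 and 0.26).

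Proteins that sit beside integrins in the membrane were a list of 14 genes, 13 of them tested, with 5 higher and 2 lower in LDN than in HDN, beside 26.0% and 20.3% of all genes (median log2 fold change -0.12). With GC correction 5 were lower. The tetraspanin Cd81 was at 66.6 ± 3.94, 1.36 ± 0.283 and 7.26 ± 2.096 CPM in Naive, HDN and LDN (LDN against HDN log2 2.41, adjusted p = 2.08e-06), and the tetraspanin Cd9 at 540 ± 55.2, 148 ± 41.3 and 380 ± 92.1 CPM (log2 1.36, adjusted p = 0.000162). By their means, both had the group order of Itgb3, but they were named for the size of their LDN against HDN difference. The 2 lower in LDN than in HDN were Cd151 (log2 -0.55) and Bsg (-0.49). For Cd9, LDN and Naive overlapped (log2 -0.51, adjusted p = 0.0497). That call ended when any of Naive 1 to 4, LDN 3, LDN 4 or LDN 7 was left out (adjusted p from 0.0592 to 0.0893). The urokinase receptor Plaur (log2 0.74, adjusted p = 0.00155) and the integrin-associated protein Cd47 (log2 0.64, adjusted p = 0.000198) were also higher in LDN than in HDN. Against Naive, 7 of the 13 were higher and 4 lower in HDN, and 5 were higher and 3 lower in LDN (medians 0.62 and 0.07).

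For each subunit, the 3 genes with the most similar profile over the 12 libraries were sought among 6075 genes by Pearson's r of log2 CPM, given as a description. The libraries share their groups, depth and base composition, so a high r can come from any of these. Itgb3 was most like Camp (r = 0.997) and Fcnb (0.994), which encode proteins of neutrophil granules, and Tinagl1 (0.996). Itgb2 was most like Cnn2 (0.993), an actin-binding calponin, 1700037H04Rik (0.989) and 9530068E07Rik (0.986), whereas Itgam was most like Psmd6 (0.974), Cwc15 (0.966) and Pdk3 (0.964). Itgal was most like Cd44 (0.985), the hyaluronan receptor, Rab11fip1 (0.955) and Sec14l1 (0.954). No 2 of the 3 beta2-family chains shared a nearest gene. Itga6 was most like the transcription factor Ets1 (0.993), Cdca7 (0.989) and the cell-cycle phosphatase Cdc25a (0.982). Itga4 was most like Zzz3 (0.981), Pigm (0.981) and Rabgap1 (0.977), and Itgb1 was most like Atxn3 (0.980), Pik3r1 (0.977) and Atf7ip (0.970). Itga2b had Arrdc3 (0.969) and Arl4c (0.951) among its 3, and Itgav was most like Serinc5 (0.969), Hnrnpu (0.964) and Cask (0.962). The weakest match was that of Itgb7, with Scly (0.923), Carkd (0.879) and Trim27 (0.878).

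In the authors' deposited tables of the same 3 comparisons, the fold changes of 10 of 10 subunits had the sign found here in each, and they differed from those here by at most 0.083 on the log2 scale in HDN against Naive, 0.094 in LDN against HDN and 0.059 in LDN against Naive. The authors' deposited tables gave an adjusted p under 0.05 to 8, 8 and 4 subunits in that order. The subunit that passed there and not here was Itgb1 in LDN against HDN, at a log2 fold change of -0.90 and an adjusted p of 0.0291 in the authors' deposited table.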

How the data were processed

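Per the labels' protocols, polyadenylated RNA was made into strand-marked libraries (KAPA kit). Per the submitters' processing notes, CASAVA 1.8.2, Trimmomatic, STAR and DESeq2 1.16.1 were used. For genome build, annotation and strand setting, nothing was given in the sources used here. Reads of overlapping or antisense genes therefore cannot be told apart. The authors deposited raw counts per gene symbol for 12 libraries, with 0 unmatched sample columns, and tables of log2 fold changes and adjusted p-values, printed only where named as theirs.

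Counts were fitted with edgeR 4.0.16 in R 4.3.3 (low-count filter by group, TMM scaling, robust quasi-likelihood model with group as the only term, all 12 libraries, Benjamini-Hochberg adjustment over 10604 genes). No label states that replicates came from separate mice, so the p-values cover only how far these libraries spread, which may be technical. Naive 3 and Naive 4 differed least, at a chi-square per gene of 3.44, against 16.1 to 76.8 in the other Naive pairs. Whether those libraries are separate samples was not tested. Subunit ratios were log2 ratios of reads with 0.5 reads added to each, compared by exact two-sided permutation over 70 arrangements and adjusted over 33 tests (11 ratios, 3 comparisons). Levels per length used the longest principal transcript of GENCODE M21. The scripts were tested on simulated data. Reads are not independent molecules, so the floor of 3 reads covers counting error only.

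Subunits, lists and tests were chosen with earlier results of these data known. Genes named from the lists were up to 4 per list with the largest LDN against HDN difference past the threshold and a mean log2 CPM not under 3, Rap1b, and other integrin subunits that reached 1 CPM. Genes with few reads (Itgae and Itga8), marker genes and the genes most like each subunit are given as values. A gene among those most like Itga2b is not reported here. Fermt3, the kindlin of blood cells, was not analysed here.

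The replicate numbers 3, 4, 5 and 7 occur in both HDN and LDN. Deviations from the group means correlated at 0.315 to 0.760 between same-numbered libraries and at -0.608 to 0.412 between others, so the numbers were taken to pair them. That is an assumption, since HDN 3 correlated more with LDN 5 (0.412) than with LDN 3 (0.385). HDN 4 and LDN 4, at 0.760, both leaned to GC-rich transcripts (r = 0.609 and 0.621), whereas HDN 7 and LDN 7 leaned apart (-0.490 and 0.223). Shared origin and shared base composition cannot be told apart in these correlations. The main tests did not use the pairing. Alternatives were RLE scaling, TMM with the 20 most abundant genes set aside, no filter, DESeq2 1.42.0, limma-voom (limma 3.58.1), only the 8 libraries compared, the replicate block, each library left out in turn and, added after seeing the data, a correction for GC content.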

Additional observations from a re-analysis of the deposited data

Results flagged for a closer look

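In 81 groups of 4 libraries, the highest or lowest library was set against the rest of its group. In 9 groups it stood apart, where chance would give 4.05 at 1 in 20. The causes were not tested.

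The beta1 and beta7 chains, or ratios to beta1, stood out in libraries whose levels leaned most to GC-rich transcripts. Itgb1 was at 15.1 CPM in Naive 1 against 28.4 to 28.8 in the other Naive libraries, and at 26.2 CPM in HDN 4 against 68.2 to 74.0 in the other HDN libraries. Itgb7 was at 61.0 CPM in HDN 4 against 3.92 to 10.95 in the others. Through its low Itgb1, Naive 1 had a log2 ratio of Itga4 to Itgb1 of 0.762 against -0.00767 to 0.0906, and LDN 4 had a log2 ratio of Itga6 to Itgb1 of -4.05 against -5.21 to -5.08.

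HDN 7, the library with the lowest Itgb3 and the highest Itga2b and Itgav, stood apart in both ratios to beta3. Its log2 ratio of Itgav to Itgb3 was 4.85 against 2.40 to 2.65 in the other HDN libraries, and that of Itga2b to Itgb3 was 2.81 against 0.432 to 0.746. In the same library Itgae was at 3.24 CPM against 1.99 to 2.09. Itga8 was at 0.0382 CPM there, which is 1 read, against 0 in the others.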

How the results depend on the processing

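Over the 3 comparisons the count of subunits called stayed within 1.5 times its value under each alternative run, from 6 to 9 in LDN against HDN. Of the results for single subunits, 216 kept their direction and their side of the threshold under alternatives other than leaving out a library, 9 newly passed, 2 no longer passed and 3 changed sign; with a library left out these numbers were 225, 5, 7 and 3. Itgb1 in LDN against HDN, which missed the threshold, passed with RLE scaling (log2 -0.93, adjusted p = 0.0497), with the 20 most abundant genes set aside (-1.01, 0.0381) and with DESeq2 (-0.93, 0.0244). With the replicate block 8 subunits were called in place of 7, with Itgb1 at -0.94 (adjusted p = 0.000782), and it changed the call of no other of the 10.

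Signs changed for values near 0 or resting on 1 library, and the cause was not tested. Itgb7 in LDN against HDN came to 0.27 with limma-voom, 0.23 with the replicate block, 0.15 with GC correction and replicate block, and 1.10 without HDN 4, in a range of -0.719 to 1.10 with a library left out. Itgb5 in HDN against Naive came to 0.0427 with the 20 most abundant genes set aside and to -0.19 to 0.22 with a library left out. Rap1b in LDN against HDN came to -0.0188 with those 20 genes set aside and to between -0.0527 and 0.169 with a library left out. Itgav in LDN against Naive ranged from -0.201 to 0.0506 with a library left out. The log2 ratio difference of Itga2b to Itgav in LDN against Naive came to 0.0335 with GC correction (adjusted p = 0.914), which also left 8 ratios in place of 9 past the threshold in HDN against Naive, without Itga4 to Itgb1 (1.11, adjusted p = 0.0898).

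GC correction moved the median of all genes by -0.18 in LDN against Naive and by -0.11 in LDN against HDN. It changed the genes higher and lower from 2910 and 2840 to 2477 and 3809 in the former. Setting the 20 most abundant genes aside moved the median by -0.11 in LDN against HDN. Ratio tests with a library left out were not run, so whether a ratio call depends on a single library was not tested. Depth limits Itga6 and Itga2b, which rest on 8 to 28 and 43 to 214 reads in the blood libraries. Among the pathway lists, lower calls in LDN against HDN rose with those 20 genes set aside, from 3 to 5 for the activation genes, from 4 to 7 for the adhesion complex and from 2 to 4 for membrane partners, and to 6, 8 and 5 with GC correction, with or without the replicate block. In LDN against Naive, GC correction moved lower calls from 2 to 4, from 4 to 9 and from 3 to 5 in these lists, and higher calls of membrane partners from 5 to 3.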
